A study of Mus musculus with 23 samples.

Results

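The mouse genes whose symbol is Gpr followed by digits were examined in the nucleus accumbens, the ventral part of the striatum. A gene belonged to the set if at least 1 probe set carried its symbol and no other, and where a gene had several such probe sets the one with the highest mean over all arrays was used. This gave 60 genes, on 65 probe sets, of 22180 genes named in the same way. Arrays came from 23 C57BL/6 mice of about 15 weeks, 1 array per mouse, with tissue taken by micropunch about 5 weeks after the same region received an injection of adeno-associated virus (AAV). The virus carried a scrambled hairpin in 5 control females and 6 control males, and a short hairpin RNA (shRNA) for Nr1d1 in 6 females and 6 males. Nr1d1 encodes the circadian repressor REV-ERBα, and the study's title ties this gene in the nucleus accumbens to social reward and to anxiety. The labels' treatment text also mentions litters and a postpartum day, for samples of both sexes, and whether the females had litters was not used here. Neither the promoter that drives the hairpin nor the cells it entered is stated in the labels.

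G protein-coupled receptors cross the membrane in a bundle of helices and pass a signal from outside the cell to heterotrimeric G proteins, which raise or lower cyclic AMP or calcium inside it. Gpr symbols were given to receptors whose ligand was unknown, and such receptors are called orphans. Several Gpr genes have since been paired with a ligand, and a few Gpr symbols belong to other multipass membrane proteins, so the symbol rule collects more than orphans. In the striatum, medium spiny neurons of the indirect pathway carry the dopamine receptor Drd2, and their cyclic AMP is raised through Golf and adenylyl cyclase 5. Cortical tissue next to the nucleus accumbens holds excitatory neurons that use the glutamate transporter Slc17a7.

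Values are deposited log2 intensities. Array medians were 6.11 to 6.17 in the 11 females and 5.84 to 5.88 in the 12 males, so a sex difference in level cannot be told apart from the processing, and levels were not compared between the sexes. All 9 measured markers of medium spiny neurons stood above the array median on every array, and all 4 measured lymphocyte markers stood below it. Also above it on every array were all measured markers of astrocytes (5), oligodendrocytes (4), their precursors (4) and endothelium (5). The same held for all 4 genes listed for septum and other neighbours. This count therefore does not tell striatal cells from glia, vessels or neighbouring tissue. In the arrays labelled knockdown, Nr1d1 differed from control by −0.05 (SE 0.09) in females and −0.01 (SE 0.09) in males, which is less than the spread between mice (limma adjusted p = 0.963 and 0.997). The hairpin groups are therefore called by their label below. Punches differed in their level of Slc17a7, the marker of cortical excitatory neurons. The control females had Slc17a7 levels of 9.40, 10.46, 11.05, 10.57 and 10.48, and the females labelled knockdown ran from 8.92 to 11.13 around a median of 10.32. Among males, 4 arrays (controls 3, 5 and 6 and labelled knockdown 6) lay between 4.64 and 6.17, and the other 8 lay between 8.01 and 10.34. Drd2 was lowest in male controls 1 and 6, at 10.82 and 10.80, and lay between 11.10 and 11.52 in the other males and between 11.40 and 11.76 in the females.

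Of the 60 Gpr genes, 35 stood above the array median in every array, 16 stood below it in every array, and 9 lay on both sides. The share above in every array was 58.3%, against 52.7% of all 22180 named genes. On a single array, 37 to 43 of the 60 were above the median. A probe set's intensity also depends on its probes, so these values say whether a transcript stands out from the bulk of the array and do not rank the genes by amount of RNA. Above the upper quartile of every array stood 15 of them, namely Gpr6, Gpr12, Gpr17, Gpr22, Gpr26, Gpr37, Gpr52, Gpr75, Gpr83, Gpr108, Gpr149, Gpr155, Gpr158, Gpr162 and Gpr165.

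**Figure D1:**
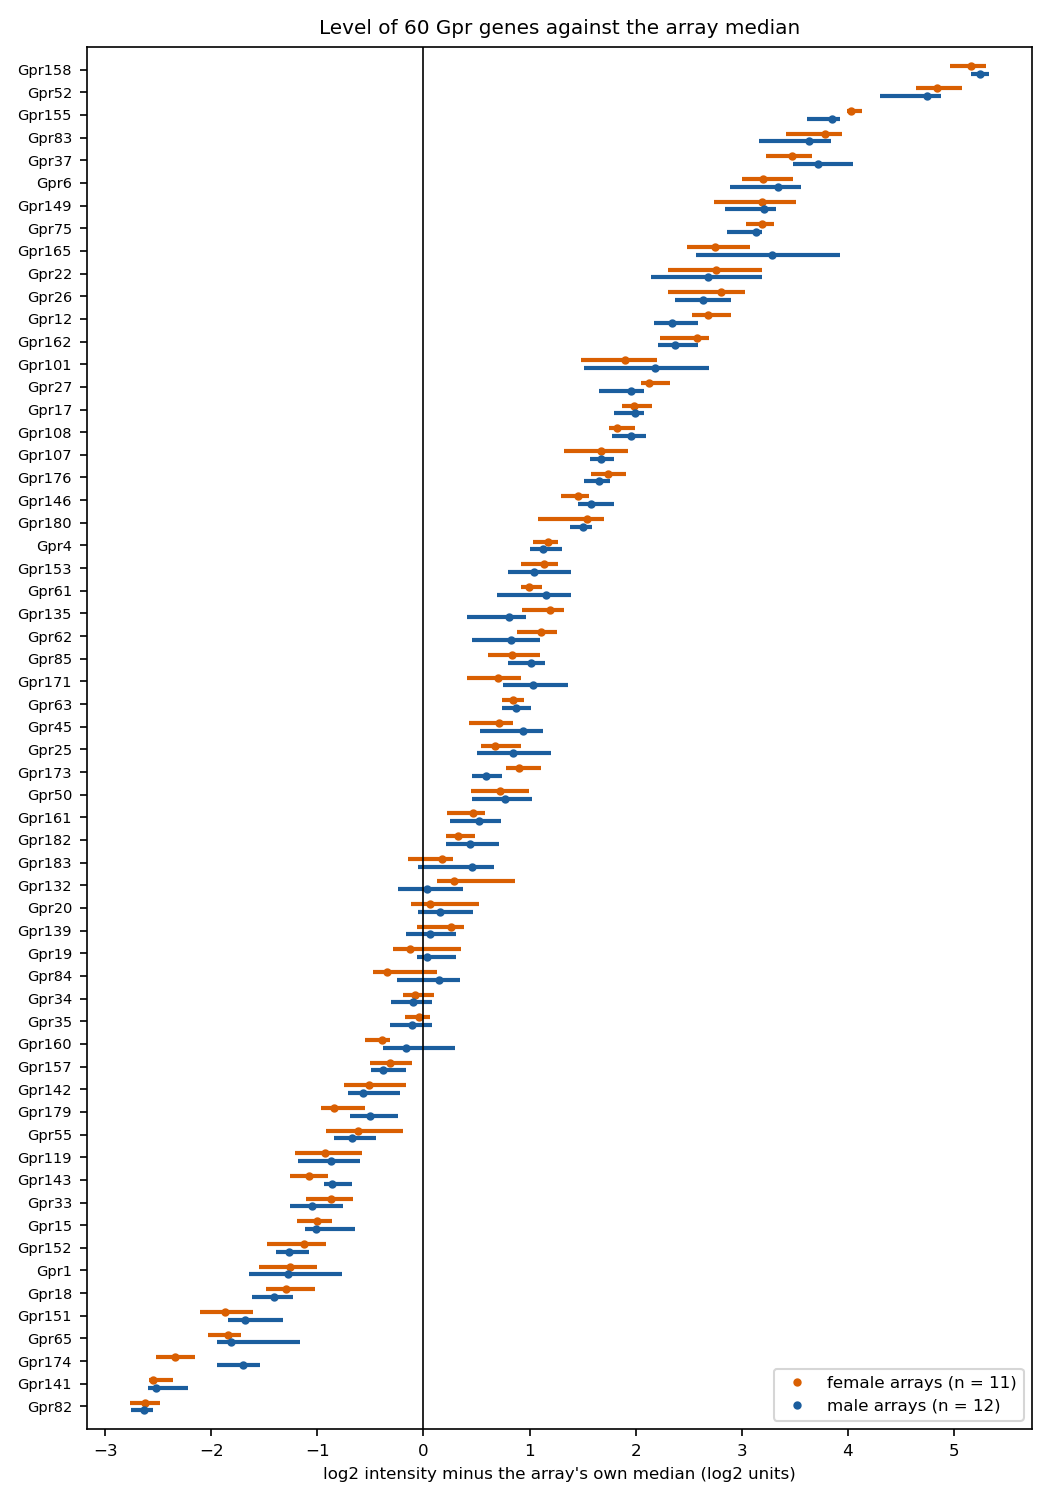
Log2 intensity minus the median of the same array (horizontal axis, log2 units) for 60 Gpr genes (rows), with a dot at the median and a line from the lowest to the highest array for 11 female and 12 male arrays. The 35 genes from Gpr182 up to Gpr158 stay to the right of 0 in every array, and the 16 from Gpr157 down to Gpr82 stay to the left.

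The receptors linked to striatal projection neurons were well above the median. Gpr52, a Gs-coupled orphan of indirect pathway neurons, had levels of 10.78 to 11.22 in females and 10.17 to 10.76 in males. Gpr6, a constitutively active Gs-coupled receptor of the same neurons, lay between 9.12 and 9.62 in females and between 8.75 and 9.42 in males. Gpr149 ranged from 8.89 to 9.62 and from 8.71 to 9.20, and Gpr101, a Gs-coupled orphan, from 7.62 to 8.34 and from 7.38 to 8.57. Gpr139, a receptor for aromatic amino acids, was the exception among the 5 measured genes of this list: it was above the median in 20 of 23 arrays, at 5.71 to 6.54. Gpr12, a close relative of Gpr6 with constitutive Gs activity, ran from 8.67 to 9.07 in females and from 8.04 to 8.45 in males.

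Among the brain orphans of the rhodopsin class, 13 of 15 measured genes were above the median in every array. They included Gpr83, a receptor reported for a proSAAS-derived neuropeptide (9.57 to 10.08 in females and 9.03 to 9.69 in males), Gpr22 (8.47 to 9.33 and 8.0 to 9.06), Gpr26 (8.44 to 9.14 and 8.22 to 8.75) and Gpr162 (8.37 to 8.82 and 8.09 to 8.44). Gpr151, known for its expression in the habenula, was below the median in every array, at 4.02 to 4.54, and Gpr19 was above it in 12 arrays. The 3 super-conserved receptors expressed in brain, Gpr27, Gpr85 and Gpr173, were all above. In class C, Gpr158, a receptor that binds the signalling regulator Rgs7, lay between 11.03 and 11.42, whereas Gpr179, its relative of retinal bipolar cells, lay between 5.14 and 5.62 and was below the median in every array. Of the genes listed as other multipass proteins with Gpr symbols, 4 of 5 measured were above in every array, with Gpr155, a lysosomal cholesterol sensor, at 10.13 to 10.25 in females and 9.48 to 9.81 in males. Gpr143, the ocular albinism receptor of melanosomes, was the fifth, below in every array.

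Receptors of glia, vessels and immune cells were divided, with 6 of 12 above the median in every array. Gpr37, a receptor of oligodendrocytes, ranged from 9.36 to 9.81 in females and from 9.33 to 9.91 in males. Gpr17, which marks oligodendrocyte precursors on their way to differentiation, lay between 8.04 and 8.28 and between 7.68 and 7.93. Gpr62, a gene of mature oligodendrocytes, ran from 7.02 to 7.37 and from 6.34 to 6.95. The endothelial genes Gpr4, a proton sensor, and Gpr182 lay at 6.87 to 7.42 and at 6.06 to 6.60 over all arrays, and Gpr171, a receptor reported for another proSAAS peptide, at 6.56 to 7.22. The immune genes of the list went both ways. Gpr18, Gpr65 and Gpr174 were below the median in every array, as were the measured lymphocyte markers. Gpr183 was above it in 21 arrays and Gpr171 in all 23. The microglial receptors Gpr34 and Gpr84 were above it in 3 and 11 arrays. None of the 8 measured receptors for lipids and metabolites (Gpr18, Gpr34, Gpr35, Gpr55, Gpr84, Gpr119, Gpr132 and Gpr183) was above the median in every array.

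The relation of the Gpr genes to the cortical marker was measured as a slope on the array's Slc17a7 level within groups, in a limma fit over all probe sets. It asks which of these transcripts vary with Slc17a7, and the make-up of the punch itself was not measured. Of 60 genes, 5 had a slope past an adjusted p of 0.05: Gpr22, Gpr26 and Gpr162 rose with Slc17a7, and Gpr165 and Gpr101 fell. Of the 41344 probe sets tested, 1.55% rose and 1.6% fell by the same rule, and 11 of the 60 Gpr genes had an unadjusted p under 0.05, as had 13.9% of the probe sets. The median slope of the 60 was −0.01 log2 units per log2 unit of Slc17a7, against 0.00017 over all named genes. In bulk tissue, fewer cells of a type and less RNA per cell cannot be told apart. The cortical genes themselves gave the background for these slopes: of the 7 measured markers besides Slc17a7, Tbr1, Neurod6, Neurod2 and Fezf2 rose, and the list's median slope was 0.34. Emx1 (0.06), Rorb (0.04) and Cux2 (−0.02) did not pass. The mean log2 level of the 8 cortical markers, which include Slc17a7 itself, was 7.5 to 8.24 in control females. It was 7.38 to 8.44 in females labelled knockdown, 6.19 to 8.33 in control males and 6.29 to 7.92 in males labelled knockdown.

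The 250 bases before the annotated start of Gpr22, Gpr165 and Gpr101 are given because these 3 genes had the smallest p values; the letters are RefSeq's, from GRCm38.p6, 5′ to 3′ on the gene's own strand, at chr12:31713884-31714133 on the minus strand for Gpr22, chrX:96713218-96713467 on the plus strand for Gpr165 and chrX:57503758-57504007 on the minus strand for Gpr101. Gpr26 and Gpr162 were not in the table. The base composition differed, with 39.6% G and C in the Gpr22 window, 54.4% in that of Gpr165 and 62.4% in that of Gpr101. The 3 motifs searched, spelled out below, were in none of these windows.
Gpr22: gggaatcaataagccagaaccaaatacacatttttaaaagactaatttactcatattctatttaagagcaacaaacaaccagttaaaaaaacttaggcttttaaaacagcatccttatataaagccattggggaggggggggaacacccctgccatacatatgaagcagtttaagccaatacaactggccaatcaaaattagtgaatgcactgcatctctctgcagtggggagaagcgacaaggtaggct
Gpr165: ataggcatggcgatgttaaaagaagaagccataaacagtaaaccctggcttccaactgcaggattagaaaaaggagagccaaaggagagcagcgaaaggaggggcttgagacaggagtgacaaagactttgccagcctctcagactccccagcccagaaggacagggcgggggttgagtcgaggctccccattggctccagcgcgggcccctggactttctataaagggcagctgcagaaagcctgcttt
Gpr101: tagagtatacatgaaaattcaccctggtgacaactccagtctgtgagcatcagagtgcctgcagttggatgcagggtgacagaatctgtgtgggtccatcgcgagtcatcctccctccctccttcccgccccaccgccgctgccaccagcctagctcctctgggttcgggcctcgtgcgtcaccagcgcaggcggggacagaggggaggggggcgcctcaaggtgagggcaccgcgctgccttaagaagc

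Gpr22 (probe set 17280571), an orphan of brain and heart, rose by 0.15 log2 units per log2 unit of Slc17a7 (SE 0.03, limma adjusted p = 0.00105). Control females had Gpr22 levels of 8.70, 8.80, 9.18, 8.96 and 8.96, in the same order as their Slc17a7 levels above. Females labelled knockdown ran from 8.47 to 9.33 around a median of 8.90, control males from 8.0 to 9.06 around 8.42, and males labelled knockdown from 8.21 to 8.87 around 8.58. The lowest female value and the lowest male value both came from the mouse of its sex with the least Slc17a7, labelled knockdown 2 and control 6. The slope was 0.29 (SE 0.08) in females and 0.14 (SE 0.02) in males. Over the 11 females, deviations from the group mean correlated at Pearson's r = 0.849 (permutation p = 0.00596, adjusted over 14 relations 0.0143) and Spearman's rho = 0.886 (permutation p = 0.0006), and r was 0.663 without the 2 arrays farthest from the median. Over the 8 males with Slc17a7 at 7 or above, r was 0.970 (exact permutation p = 0.0194, adjusted 0.0340) and rho 0.968 (exact permutation p = 0.0111), and r was 0.983 without the 2 farthest. These relations were chosen by their slopes on the same arrays, so the correlations describe the slopes and are no second line of evidence.

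Gpr26 (probe set 17484049), a constitutively active orphan of brain, had a slope of 0.08 (SE 0.02, limma adjusted p = 0.0203), and Gpr162 (17470948), a brain orphan, had 0.06 (SE 0.02, adjusted p = 0.0345). The control females had Gpr26 levels of 8.44, 8.93, 8.97, 9.14 and 8.94 and Gpr162 levels of 8.37, 8.70, 8.74, 8.73 and 8.67, with control 1, the control female with the least Slc17a7, lowest for both. Females labelled knockdown had Gpr26 at 8.60 to 8.97 (median 8.83), control males at 8.22 to 8.59 (8.43) and males labelled knockdown at 8.37 to 8.75 (8.55). For Gpr162 these were 8.41 to 8.82 (8.74), 8.09 to 8.41 (8.24) and 8.12 to 8.44 (8.27). Both slopes were larger in females, at 0.23 (SE 0.05) against 0.06 (SE 0.02) for Gpr26 and at 0.19 (SE 0.05) against 0.05 (SE 0.01) for Gpr162. The difference of slopes between the sexes did not pass the test (unadjusted p = 0.00746 and 0.00657, limma adjusted p = 0.50 and 0.495). In females both relations rest on labelled knockdown 2 and control 1. Without them r fell from 0.776 (rho 0.712, permutation p = 0.00614 and 0.0195) to 0.361 for Gpr26 and from 0.878 (rho 0.631, permutation p = 0.0112 and 0.0601) to 0.177 for Gpr162. In the 8 males r was 0.689 for Gpr26 (rho 0.849, exact permutation p = 0.00556 for both) and 0.871 without the 2 farthest arrays. For Gpr162 it was 0.676 (rho 0.481, exact permutation p = 0.0569 and 0.144) and 0.661. Gpr162 lost its call when any of 7 arrays was left out singly (female labelled knockdown 2, male controls 1, 2, 3 and 5, and males labelled knockdown 3 and 6), with adjusted p values of 0.0547 to 0.0906. Gpr26 had an adjusted p of 0.0768 without the 4 males with Slc17a7 below 7.

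Gpr165 (probe set 17536420), an orphan with little known function, fell by 0.17 per log2 unit of Slc17a7 (SE 0.02, limma adjusted p = 8.7e-05). In males the arrays poor in Slc17a7 stood apart: Gpr165 was 9.39, 9.45 and 9.79 in controls 3, 5 and 6 and 9.63 in labelled knockdown 6, and 8.44 to 9.32 in the other 8. No male array with Slc17a7 at 7 or above reached the lowest of the 4. Females had levels of 8.94, 8.88, 8.78, 9.19 and 9.17 among controls and 8.63 to 8.94 (median 8.90) among those labelled knockdown. The slope was −0.19 (SE 0.02) in males and −0.06 (SE 0.07) in females, and their difference did not pass the test (limma adjusted p = 0.874). Over the 11 females r was −0.248 (rho −0.229, permutation p = 0.474 and 0.511) and −0.406 without the 2 farthest arrays. Over the 8 males with Slc17a7 at 7 or above r was −0.912 (rho −0.928, exact permutation p = 0.025 for both, adjusted 0.0389 and 0.0438) and −0.842 without the 2 farthest. Without the 4 males below 7 the pooled slope was −0.18 and its adjusted p 0.127.

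Gpr101 (probe set 17541919) fell by 0.16 (SE 0.03, limma adjusted p = 0.00175). Control females had 8.34, 7.97, 7.72, 8.01 and 8.20, highest where Slc17a7 was lowest and lowest where it was highest. Females labelled knockdown ran from 7.62 to 8.32 (median 8.06), control males from 7.38 to 8.57 (8.37) and males labelled knockdown from 7.75 to 8.38 (7.97). The slope was −0.31 (SE 0.09) in females and −0.15 (SE 0.03) in males. Its call was lost without male labelled knockdown 6 and male control 1 (−0.15, adjusted p = 0.0618), and in fits of females alone (adjusted p = 0.102) and of males alone (0.0505). In females r was −0.835 (rho −0.861, permutation p = 0.00238 and 0.00243, adjusted 0.0115 and 0.0113) and −0.840 without the 2 farthest arrays. In the 8 males r was −0.798 (rho −0.793, exact permutation p = 0.185 and 0.122) and turned to 0.140 without controls 1 and 4, so there it rests on these arrays. The other genes of the striatal list did not pass the test, with slopes of 0.01 for Gpr6, −0.03 for Gpr52, −0.04 for Gpr149 and −0.03 for Gpr139. Of 4 genes listed for septum and other neighbours, the cholinergic Chat and Slc18a3 fell with Slc17a7 (−0.12, SE 0.02, and −0.13, SE 0.03). Slc17a6 (−0.12, limma adjusted p = 0.165) and Trpc4 (0.05, adjusted p = 0.314) did not pass. Cholinergic genes do not tell neighbouring tissue from the nucleus accumbens itself. The part of these 4 genes in the slopes of Gpr165 and Gpr101 was not tested.

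**Figure D2:**
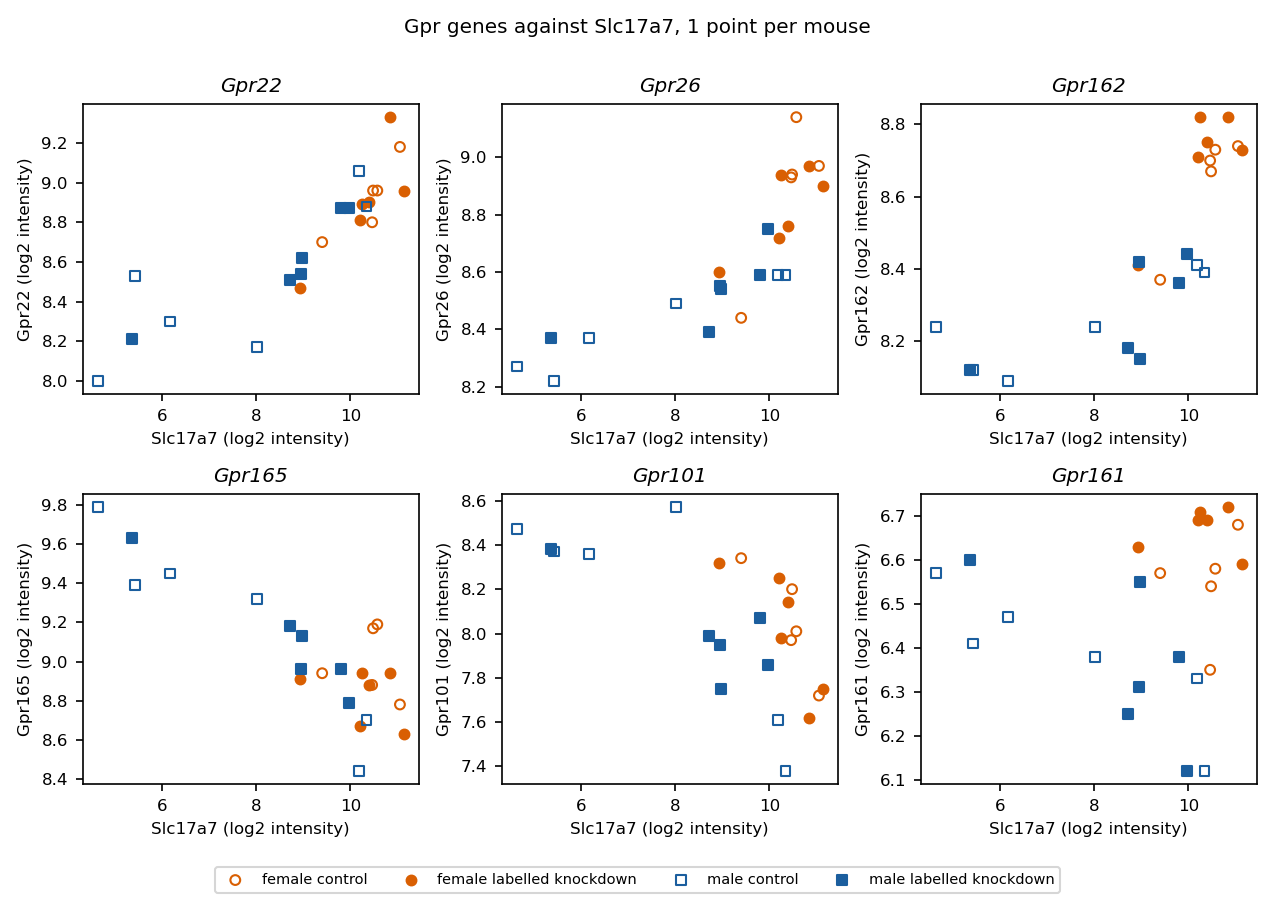
Log2 intensity of 6 Gpr genes (vertical axes) against Slc17a7 (horizontal axes, log2 intensity), 1 point per mouse, with females as circles and males as squares, open for control and filled for labelled knockdown. Gpr22, Gpr26 and Gpr162 climb to the right, Gpr165 and Gpr101 descend, and Gpr161, which did not pass the test, is the next gene by p; the 4 male arrays at Slc17a7 levels of 4.64 to 6.17 lie apart.

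The next 5 genes by p all had negative slopes that did not pass. Gpr161, a ciliary receptor that restrains Hedgehog signalling, had −0.05 (adjusted p = 0.0782), Gpr33 −0.05 (0.0828), Gpr83 −0.05 (0.213), Gpr183, the oxysterol receptor, −0.05 (0.230), and Gpr37 −0.05 (0.260), all by limma. Gpr161 lay at 6.35 to 6.72 in females and 6.12 to 6.60 in males, Gpr33 at 5.00 to 5.51 and 4.62 to 5.09, and Gpr183 at 6.02 to 6.42 and 5.82 to 6.51. None of the 12 glial, vascular and immune receptors passed in either direction. Of the 4 oligodendrocyte precursor markers, Pdgfra and Olig2 fell with Slc17a7 (−0.05 and −0.07). Olig1 (−0.05, limma adjusted p = 0.0597) and Cspg4 (0.0068, adjusted p = 0.938) did not pass. The slope of Gpr17 was −0.0022 (SE 0.01, 95% interval −0.03 to 0.02). Of the 22 measured genes of the receptor coupling machinery, Adcy1, a cyclase of cortical neurons, and Rgs4 rose (0.27 and 0.06) and none fell.

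The relation to Drd2 was measured in the same way and asks which Gpr transcripts vary with the indirect pathway marker. Of the 60 genes, Gpr6 and Gpr83 rose with Drd2 and none fell, while 0.428% of the 41344 probe sets tested rose and 0.227% fell. An unadjusted p under 0.05 was reached by 12 of the 60, of which 10 had a positive slope, and by 11.3% of the probe sets. All 5 measured genes of the striatal list had a positive slope, with a median of 0.47 log2 units per log2 unit of Drd2 against 0.0023 over all named genes, and Gpr6 alone of them passed. Of the medium spiny neuron markers besides Drd2, 8 of 8 had positive slopes, and Penk, Foxp1, Rgs9 and Pde10a rose past the threshold. Of the 4 genes listed for septum and other neighbours, Trpc4 fell with Drd2 (−0.74, SE 0.15, limma adjusted p = 0.0205). Slc17a6 (−1.07, SE 0.33, limma adjusted p = 0.159), Chat (0.11) and Slc18a3 (0.43) did not pass. The part of these 4 genes in the slopes of the Gpr genes was not tested. Drd2 itself had a slope of −0.02 on Slc17a7 (SE 0.03, limma adjusted p = 0.883).

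Gpr6 (probe set 17240401) rose by 0.69 per log2 unit of Drd2 (SE 0.12, 95% interval 0.43 to 0.95, limma adjusted p = 0.0122). Its levels were 9.62, 9.36, 9.15, 9.27 and 9.12 in control females, whose Drd2 levels in that order were 11.71, 11.49, 11.42, 11.40 and 11.45. Females labelled knockdown had 9.20 to 9.51 (median 9.38), control males 8.75 to 9.26 (9.14) and males labelled knockdown 8.97 to 9.42 (9.24). The lowest values in males, 8.75 and 8.89, were those of controls 6 and 1, the arrays with the least Drd2. The slope was 0.75 (SE 0.26) in females and 0.67 (SE 0.15) in males. Over the 12 males r was 0.900 (permutation p = 9e-05, adjusted 0.00126; rho 0.795, permutation p = 0.00239) and 0.773 without controls 1 and 6. Over the 11 females it was 0.653 (rho 0.633, permutation p = 0.0358 and 0.0501, adjusted 0.0501 and 0.0779) and 0.317 without labelled knockdown 2 and control 1, so in females it rests on those arrays. Gpr6 kept its call with each array left out in turn, but without male controls 1 and 6 together its slope was 0.72 with an adjusted p of 0.192.

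The window before the start of Gpr6 (chr10:41072291-41072540 of GRCm38.p6, minus strand) is given because it was the only one among the 45 Gpr genes in the RefSeq promoter table to hold the full cyclic AMP response element TGACGTCA, in capitals, which starts 78 bases before the annotated start. Of 32851 windows of the same length in that table, 1.55% held this element, and of the 59 windows of the 45 Gpr genes 1.69% did.
Gpr6: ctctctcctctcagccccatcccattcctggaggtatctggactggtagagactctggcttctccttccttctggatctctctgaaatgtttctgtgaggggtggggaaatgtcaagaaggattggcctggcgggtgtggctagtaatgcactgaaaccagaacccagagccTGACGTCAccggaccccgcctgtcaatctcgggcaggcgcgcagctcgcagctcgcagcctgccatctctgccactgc

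Gpr83 (probe set 17514789) rose by 0.61 (SE 0.14, 95% interval 0.32 to 0.89, limma adjusted p = 0.0404). Control females had 10.08, 9.88, 9.78, 9.95 and 9.90, females labelled knockdown 9.57 to 10.07 (median 9.92), control males 9.03 to 9.69 (9.44) and males labelled knockdown 9.42 to 9.59 (9.53). The slope was 0.95 (SE 0.27) in females and 0.49 (SE 0.15) in males, and their difference did not pass (adjusted p = 0.842). In females r was 0.852 (rho 0.773, permutation p = 0.00247 and 0.0140, adjusted 0.0115 and 0.0326) and 0.806 without the 2 farthest arrays. In males r was 0.685 (rho 0.601, permutation p = 0.0774 and 0.0989) and 0.317 without controls 1 and 6. The call of Gpr83 was lost in 13 of the 23 fits that left out 1 array, with adjusted p values of 0.0515 to 0.145. The arrays were female controls 1, 2, 3 and 5, females labelled knockdown 1, 2, 3, 5 and 6, male controls 1, 3 and 5, and male labelled knockdown 3. Without male controls 1 and 6 its adjusted p was 0.256.

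**Figure D3:**
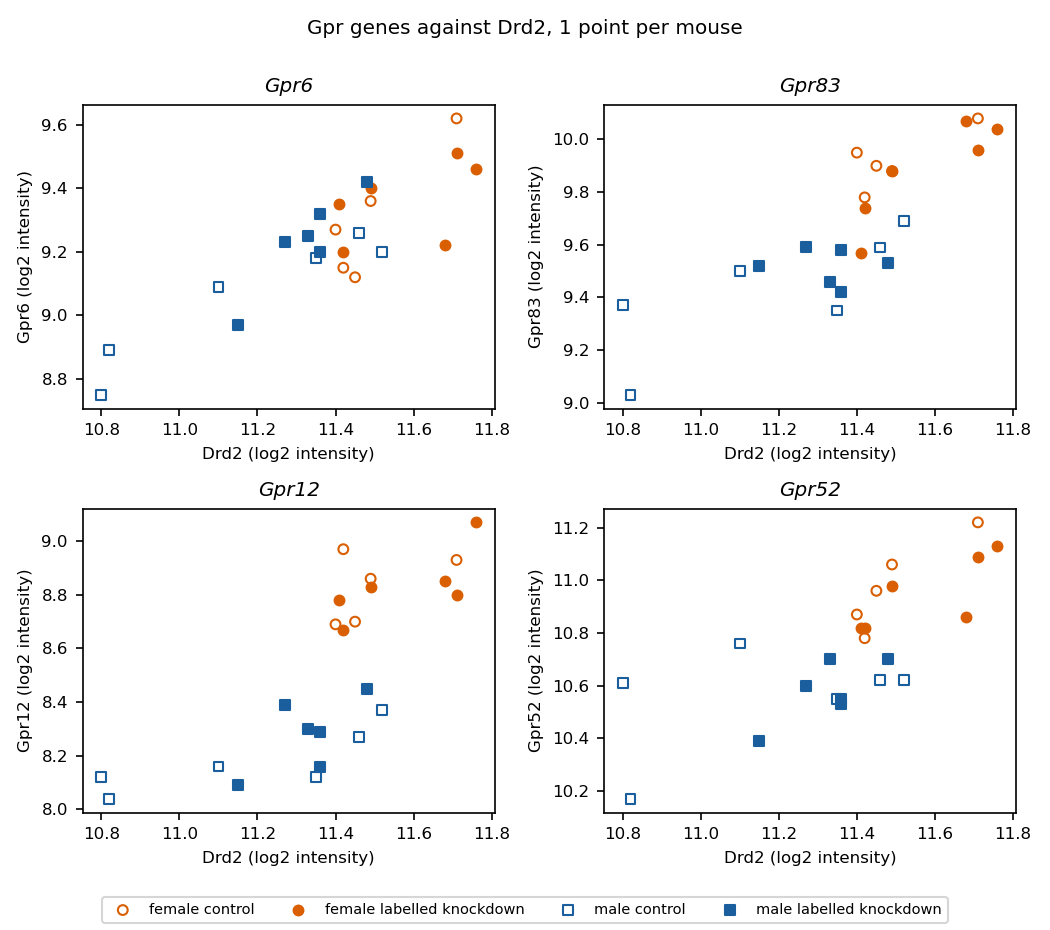
Log2 intensity of Gpr6, Gpr83, Gpr12 and Gpr52 (vertical axes) against Drd2 (horizontal axes, log2 intensity), 1 point per mouse, with females as circles and males as squares, open for control and filled for labelled knockdown. Gpr6 and Gpr83 passed the test of the slope within groups and Gpr12 and Gpr52 did not; male controls 1 and 6 are the open squares at Drd2 levels of 10.82 and 10.80.

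Gpr12 and Gpr52 had positive slopes that did not pass: Gpr12 had 0.41 (SE 0.12, adjusted p = 0.140) and Gpr52 had 0.47 (SE 0.15, adjusted p = 0.191). Gpr135 had the largest negative slope of the 60, −0.43 (SE 0.11, adjusted p = 0.0837), and Gpr84, the medium-chain fatty acid receptor of microglia, had 0.55 (SE 0.16, adjusted p = 0.128). Gpr135 lay at 7.10 to 7.45 in females and 6.29 to 6.83 in males. The 3 super-conserved receptors all had negative slopes, with a median of −0.23, and none passed. Of the 22 coupling genes, 7 rose with Drd2 and none fell. They were Gnal, the alpha subunit of Golf (0.56), its partner Gng7 (0.57), the cyclase Adcy5 (0.57), the phosphodiesterases Pde1b (0.61) and Pde10a (0.56), and the regulators Rgs9 (0.53) and Rgs2 (0.38). Pde10a and Rgs9 are also on the list of medium spiny neuron markers.

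With both markers in 1 fit, the slopes were close to those above. Gpr165 had −0.18 on Slc17a7 (limma adjusted p = 2.0e-05), Gpr101 −0.16 (0.00193) and Gpr22 0.15 (0.00126). Gpr6 had 0.71 on Drd2 (adjusted p = 0.00582) and Gpr83 had 0.56 (0.0199).

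For the comparison the study was built on, labelled knockdown against control, none of the 60 Gpr genes passed an adjusted p of 0.05. The share of all 41345 probe sets called was 0% in females, 0% in males, 0% for the average of both sexes and 0% for the difference between the sexes, by limma. At an unadjusted p under 0.05 stood 5, 2, 3 and 7 of the 60 Gpr genes, and 2423, 1948, 1949 and 2358 of all probe sets. The differences of the 60 genes ran from −0.27 to 0.21 in females, with a median of −0.01, and from −0.20 to 0.17 in males, with a median of 0.02; the medians over all named genes were 0.00033 and 0.0033. The middle of the 60 intervals reached 0.168 to either side in females and 0.160 in males, so for the genes with intervals at least that wide a difference below that size cannot be told from 0 with these arrays. Slc17a7 differed between males labelled knockdown and controls by 1.17 (SE 0.85), within its spread.

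In females, Gpr151 (probe set 17354074) had the smallest p of the 60. Its levels were 4.45, 4.34, 4.50, 4.33 and 4.51 in controls and 4.19, 4.14, 4.18, 4.07, 4.30 and 4.03 in those labelled knockdown, so the groups did not overlap. The difference was −0.27 (SE 0.07, limma adjusted p = 0.839), with 6 of 6 below the control mean and an exact permutation p of 0.00433, where 0.00216 is the smallest possible. Gpr151 was picked from the 60 by its limma p, and the permutation p is not adjusted for that choice. How many of all probe sets also had female groups without overlap was not counted. In males the difference was 0.00 (SE 0.07), at 4.07 to 4.29 and 4.02 to 4.54, and the difference between the sexes was 0.27 (unadjusted p = 0.0134, limma adjusted p = 0.845). All these levels lie below the array median. Gpr82, which neighbours Gpr34 in the genome, was next by p. It differed by 0.13 (SE 0.05, limma adjusted p = 0.839), at 3.37 to 3.54 in control females and 3.52 to 3.69 in those labelled knockdown. Gpr179 came after Gpr82, with 5.22, 5.34, 5.25, 5.14 and 5.25 in control females and 5.30 to 5.62 (median 5.42) in those labelled knockdown. Its difference was 0.21 (SE 0.08, limma adjusted p = 0.839). The groups overlapped for both genes, and both genes lay below the array median in every array.

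In males the smallest p values were those of Gpr108, a Golgi protein, Gpr61, a constitutively active Gs-coupled orphan, and Gpr75. Gpr108 lay at 7.66 to 7.91 (median 7.75) in controls and 7.80 to 7.96 (7.86) in those labelled knockdown, a difference of 0.10 (SE 0.05). Gpr61 lay at 6.57 to 7.26 (6.88) and 6.93 to 7.15 (7.05), a difference of 0.16 (SE 0.08), and Gpr75 at 8.73 to 9.01 (8.92) and 8.91 to 9.05 (9.02), a difference of 0.09 (SE 0.05). The groups overlapped for all 3 and each had a limma adjusted p of 0.996. Averaged over both sexes, the smallest p values were those of Gpr151 (−0.14), Gpr75 (0.08) and Gpr82 (0.07). For the difference of the effects, males minus females, they were those of Gpr151, Gpr55, the lysophosphatidylinositol receptor (0.29, limma adjusted p = 0.852), and Gpr179 (−0.24, adjusted p = 0.872).

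**Figure D4:**
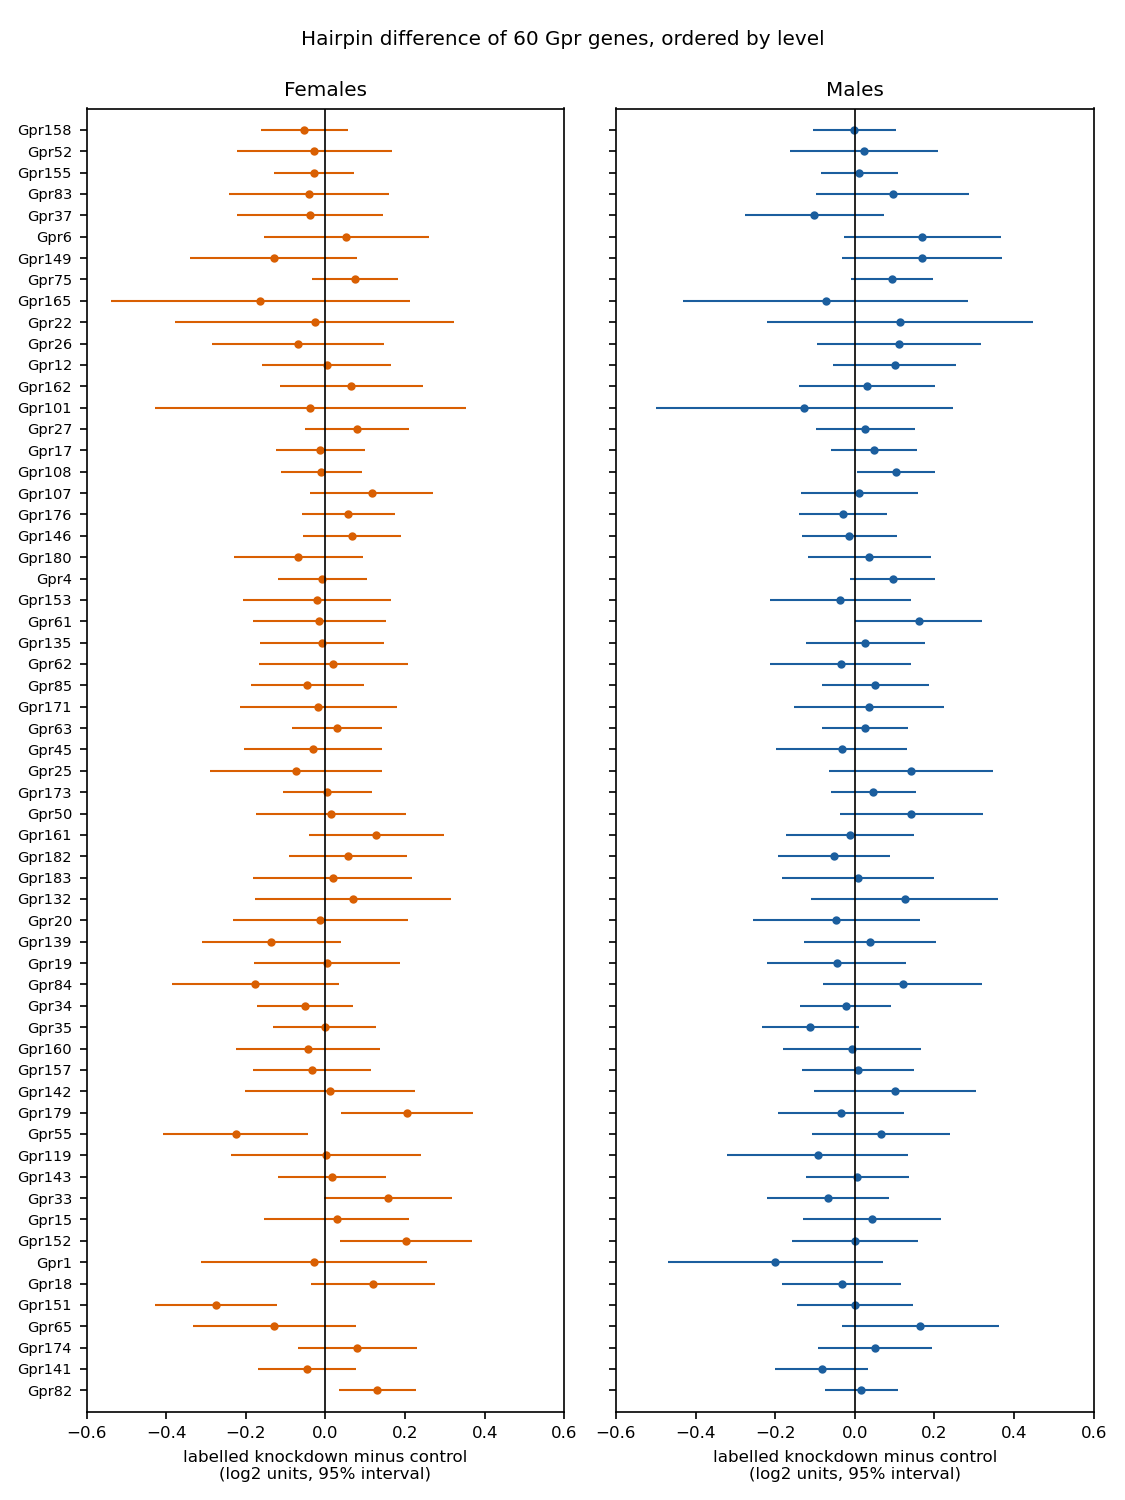
Difference of labelled knockdown minus control (horizontal axes, log2 units) for 60 Gpr genes (rows, ordered by level above the array median), with the limma estimate as a dot and its 95% interval as a line, in females (left, 6 against 5 mice) and males (right, 6 against 6). Most intervals cover 0; none of the differences passed the adjusted threshold, and Gpr151 in females lies farthest from 0, at −0.27.

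By role, the differences in females and males had medians of −0.04 and 0.04 for the 5 striatal receptors, −0.01 and 0.02 for the 12 glial, vascular and immune receptors, −0.02 and 0.03 for the 15 brain orphans, and −0.0007 and −0.0075 for the 8 lipid and metabolite receptors. None of their members passed. REV-ERBα binds a site whose core is AGGTCA. This hexamer, searched on both strands, was in the 250 bases before the start of 9 of the 45 Gpr genes in the promoter table (Gpr1, Gpr19, Gpr63, Gpr82, Gpr84, Gpr132, Gpr142, Gpr155 and Gpr161), or 16.9% of their 59 windows, against 14.02% of all 32851 windows. The E-box CACGTG was found in 1 of the 45, Gpr63, or 1.69% of their 59 windows, against 6.02% of all windows.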

How the data were processed

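RNA from 23 punches of nucleus accumbens, 1 per mouse, was hybridised to whole-transcript arrays. The deposited table holds log2 intensities of 41345 probe sets, made by the authors with Transcriptome Analysis Console per the submitters' processing notes; its version, its normalization and the build are not stated there. Array medians differ between the sexes and hardly within them. Probe sets were named from the array's annotation table (1 symbol for 23521, several for 1814, none for 16010). All 60 Gpr genes matched the GRCm38.p6 gene table by Entrez number. Of 70 Gpr symbols in that table, 10 were not analysed here: 5 share their probe sets with another gene and 5 had no probe set named here.

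Limma 3.58.1 in R 4.3.3 was fitted to all probe sets with 1 mean per group (19 residual degrees of freedom), and for the slopes with Slc17a7 or Drd2 as a covariate (18). Tests were two-sided, with Benjamini-Hochberg adjustment over all probe sets and a threshold of 0.05. The series calls all samples biological replicates. Correlations used deviations from group means, permuted within groups (100000 draws, or all 720 orders for the 8 males). On simulated data the fit recovered 76.5% of changes of 0.5 between females and 91.5% of slopes of 0.2 on Slc17a7, over 41345 features. The simulated noise was independent between probe sets. Both sizes are larger than any difference in females or common slope on Slc17a7 of the 60 Gpr genes. Recovery of smaller effects was not measured. The number of arrays limits the precision.

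Members and lists were chosen with earlier results of these data known. Values are given for striatal, Gs-coupled and glial or vascular members above the median in every array, the 10 and 5 members with the smallest p of the slopes on Slc17a7 and Drd2, and the 3 with the smallest p in each hairpin contrast. Gpr52 and Gpr139, outside the ranks of the Drd2 slope or the level rule, and the other genes given by range were named to account for their lists. The 18 adhesion receptors listed under older Gpr symbols had no probe set under those symbols. Alternatives covered normalization, prior, array weights, filter, covariates, left-out arrays and a replicate block.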

Additional observations from a re-analysis of the deposited data

Results flagged for a closer look

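In 124 groups of 5 or 6 arrays, 10 held an array far from the others by Dixon's criterion, which chance does in about 1 in 20 groups. Gpr162 was 8.37 in female control 1, against 8.67 to 8.74 in the other controls, and 8.41 in female labelled knockdown 2, against 8.71 to 8.82; these are the arrays with the least Slc17a7 of their groups. Gpr135 was 6.29 in male control 5, against 6.63 to 6.83. Gpr151 was 4.54 in male labelled knockdown 5, against 4.02 to 4.20. Gpr75 was 8.73 in male control 1, against 8.91 to 9.01, and 8.91 in male labelled knockdown 3, against 9.01 to 9.05. Gpr52 was 10.17 in male control 1, against 10.55 to 10.76, and this array also had low Drd2. Gpr62 was 6.34 in male labelled knockdown 1, against 6.64 to 6.74. Slc17a7 was 5.37 in male labelled knockdown 6, against 8.72 to 9.97. Nr1d1 was 9.93 in female control 4, against 10.05 to 10.09.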

How the results depend on the processing

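The count of 0 Gpr genes called between labelled knockdown and control held under all 29 alternatives in each sex, for the average and for the difference. Of the 60 Gpr genes, those with a called slope on Slc17a7 numbered 5, and 4 to 6 with each array left out in turn; 0 in females alone, 3 in males alone (4 where all arrays were fitted with a slope for each sex) and 2 without male labelled knockdown 6 and male control 1, the arrays farthest from their group's median, where Gpr165 and Gpr22 were the ones called. In females alone the slopes of Gpr161, Gpr183 and Gpr37 turned to 0.016, 0.0086 and 0.080. The count of called slopes on Drd2 was 2, and 1 to 2 with each array left out; it was 0 in females alone, 0 in males alone, 0 without the 2 farthest arrays, which are male controls 1 and 6 (an alternative also added after seeing the data, again 0), and 0 with the replicate number as a block. In that blocked fit Gpr6 had 0.68 (adjusted p = 0.127) and Gpr83 0.87 (0.0657), and the block left the other counts at 5 and 0. Same-numbered arrays of different groups correlated at −0.154 to 0.169 (median 0.0032, 33 pairs), so the numbers were not taken to pair mice. Under the upper quartile in place of the median, 15 genes stood above in every array. Why the counts changed was not tested, and the fits within 1 sex and without arrays also had fewer samples. The leave-out of the 4 males with Slc17a7 below 7 was added after seeing the data. Gpr155, Gpr158 and Gpr171 have further probe sets at 5.70 and 5.897, 5.91 and 5.23, near or below the array median, which did not follow the one used (r from −0.340 to 0.108 within groups). Gpr25 has a further probe set at 6.41, above the median in all 23 arrays, which also did not follow the one used (r = −0.307).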
